A study of Mus musculus with 6 samples.

Results

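Kinesins are motor proteins that walk along microtubules, and their genes were followed here in bone marrow progenitor cells that carry a mutant Asxl1 allele. Every row of the count table whose gene symbol is Kif with a number and at most 1 letter, or Kif with a letter and a number, was taken as a member, which gave 40 of 24421 rows. By textbook role these are 14 mitotic kinesins, 17 transport kinesins and 9 other kinesins, most of the last group tied to cilia. RNA was sequenced from LK cells, the lineage-negative, c-Kit-positive progenitors of mouse bone marrow, in 3 wild type and 3 ASXL1-MT-KI libraries. Both groups were C57BL/6 littermates of 8 to 12 weeks with no treatment in the labels. The label ASXL1-MT-KI stands for mice with a mutant form of ASXL1 knocked in. ASXL1 regulates chromatin and is often mutated in myeloid cancers and clonal haematopoiesis. The labels do not give the promoter that drives the allele, the cells in which it is active, the sexes or whether a library came from 1 animal. They call the 3 replicates independent experiments, and p-values set the difference between the groups against the variation between these libraries.

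Kinesins hydrolyse ATP to move along, slide or shorten microtubules. Mitotic kinesins build the spindle, move chromosomes and complete cytokinesis, and their mRNAs are made mainly in late cell cycle phases, so that dividing progenitors hold much of them. Transport kinesins carry vesicles, mitochondria and other cargo, mostly toward microtubule plus ends, through light chains and adaptors, while dynein moves cargo the other way. A further group works in or near the cilium, an organelle best known from epithelial and sensory cells.

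The promoters of the mitotic kinesins are shown because most of them held a short element that most of the other members' promoters lacked. The element searched was TTTGAA, the core of the cell cycle genes homology region (CHR), on both strands (TTCAAA on the opposite one). The windows, on GRCm38.p6, run from 250 bases before to 50 after a RefSeq transcript start, which is not always the outer end of the gene. The element was found in 10 of the 13 mitotic kinesins with a window (76.9%), in 1 of 11 transport kinesins (9.09%) and in 2 of 8 other kinesins (25%). The share was 14.4% over the 10185 tested genes with a window and 20.2% over all 27025 genes with one. The promoters of 8 members, among them Kif21b, Kifc3 and Kif19a, were not analysed here. In 8 mitotic kinesins the element began within 20 bases of the start, a distance chosen after the positions were seen, against 1.65% of the tested genes with a window. The same held for 11 of 29 spindle partner genes (37.9%), for 1 of 8 other kinesins (Kif26b) and for 0 of 11 transport kinesins. These are printed 5′ to 3′ on the gene's strand, with 12 bases on each side and the element in capitals.
Kif11: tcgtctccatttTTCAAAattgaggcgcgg
Kif15: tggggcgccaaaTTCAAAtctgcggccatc
Kif23: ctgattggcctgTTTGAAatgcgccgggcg
Kif20b: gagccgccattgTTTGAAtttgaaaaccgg
Kif4: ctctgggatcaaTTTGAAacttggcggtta
Kif22: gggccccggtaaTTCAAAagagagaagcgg
Kif18b: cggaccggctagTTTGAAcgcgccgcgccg
Kifc1: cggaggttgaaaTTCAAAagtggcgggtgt
The stretches lie at Kif11 chr19:37376351-37376380 (plus strand), Kif15 chr9:122951050-122951079 (plus strand), Kif23 chr9:61946780-61946809 (minus strand), Kif20b chr19:34922353-34922382 (plus strand), Kif4 chrX:100626072-100626101 (plus strand), Kif22 chr7:127042420-127042449 (minus strand), Kif18b chr11:102925104-102925133 (minus strand) and Kifc1 chr17:33890615-33890644 (minus strand). The first base of the element stood in Kif11 at 19 bases before the start, Kif15 at 19 bases before the start, Kif23 at base 3 of the transcript, Kif20b at base 8 of the transcript, Kif4 at base 20 of the transcript, Kif22 at 17 bases before the start, Kif18b at base 4 of the transcript and Kifc1 at base 2 of the transcript. The Kif20b stretch holds a further copy, in lower case, that begins at base 14. In Kif14 and Kif2c the element stood farther out, at 228 and 103 bases before the start. The windows of these genes lie inside the annotated gene and hold 3 and 2 CpG dinucleotides, against a median of 26 over the mitotic windows. The matches in Kif1a, the only one among transport kinesins, and in Kif27 also lie in windows inside the gene. The CCAAT box (CCAAT, both strands) was in 8 of the 13 mitotic windows' genes (61.5%) and 42.6% of tested genes, and both motifs stood together in 7 of 13 (53.8%) against 5.79%. Among 29 spindle partner genes with a window, 20 (69.0%) held TTTGAA. A match describes letters in the window and does not show that a factor binds there.

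Kif21a, the transport kinesin with the largest difference between the groups, had neither motif in its window. Its 250 bases before the start (RefSeq, GRCm38.p6, chr15:91049952-91050201, minus strand) are printed with each CpG dinucleotide in capitals, because the stretch is rich in them.
Kif21a: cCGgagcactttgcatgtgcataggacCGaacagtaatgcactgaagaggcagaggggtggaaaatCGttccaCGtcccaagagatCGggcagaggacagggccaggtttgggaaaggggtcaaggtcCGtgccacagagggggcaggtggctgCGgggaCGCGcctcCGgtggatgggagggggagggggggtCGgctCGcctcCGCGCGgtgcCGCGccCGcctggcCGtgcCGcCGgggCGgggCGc
This stretch holds 23 CpG dinucleotides at 69.6% G and C. The 300-base window around the start holds 30, against a median of 20 over the windows of tested genes, 30 over those of transport kinesins and 26 over those of mitotic kinesins.

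The libraries held 40462168 to 47579480 counts. Asxl1 itself measured 170.4 ± 5.43 CPM (counts scaled to library size, here with TMM factors) in wild type and 320.1 ± 8.71 in ASXL1-MT-KI (SD, n = 3 each), an edgeR log2 difference of 0.91 (adjusted p = 9.72e-06), and the table does not separate the wild type from the mutant transcript. All 6 markers checked for the LK gate were present in both groups, and 2 of them differed in edgeR: Cd34 fell from 375.2 ± 22.2 to 302.7 ± 6.56 CPM (adjusted p = 0.00449) and Myb rose from 842.1 ± 22.6 to 968.1 ± 30.9 CPM (0.0174). Kit measured 406.4 ± 41.0 and 382.9 ± 11.7 CPM (0.446), and the part of these differences in the kinesin levels was not tested. Slc4a1, a red cell anion exchanger, was the only one of 15 tested red cell markers to pass the edgeR test, while all 15 estimates were above 0. Library number 3 had the lowest summed red cell marker level of its group, at 1561 CPM in wild type against 2410 and 2610, and at 2281 CPM in ASXL1-MT-KI against 2950 and 3156. Over the other lists, genes called higher and lower were 1 and 3 of 11 for megakaryocytes, 1 and 2 of 10 for monocytes, 0 and 3 of 8 for B cells and 0 and 1 of 6 for stroma and endothelium, where 8.29% of all genes were called higher and 7.69% lower. No gene of the neutrophil (9 tested), mast cell and basophil (8), T and NK cell (3) or neuron (2) lists was called by edgeR, with 0, 1, 1 and 0 genes at an unadjusted p under 0.05. DESeq2 called 1 gene of the mast cell and basophil list and 0 of the other 3 lists, and limma-voom called 0 of all 4.

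Of the 40 kinesins, 36 held enough counts to be tested. Kif2b and Kif12 were at 0 in all libraries, Kif26a held at most 2 counts and Kif5c 1 to 16. Kif1a, Kif6 and Kif27 reached 10 counts in every ASXL1-MT-KI library but not in every wild type library, so they entered the test largely through the group in which they were higher. In edgeR's quasi-likelihood test with Benjamini-Hochberg adjustment over all 13548 tested genes, 6 of the 36 differed at 0.05, or 16.7%, beside 16.0% of all genes. In all, 5 members rose in ASXL1-MT-KI (13.9%, beside 8.29% of all genes) and Kif5b fell (2.78%, beside 7.69%). The risers were Kif21a, Kifc3 and Kif1b of the transport class and Kif19a and Kif6 of the other class. No mitotic kinesin was called among 13 tested, in edgeR, DESeq2 or limma-voom, and Kif14 and Kif2c had an unadjusted edgeR p under 0.05. The median log2 difference was 0.04 over mitotic, 0.21 over transport and 0.22 over other kinesins, and 0.00 over all genes. The value of the other class depended on the filter for low counts. With a filter of 1 CPM in 3 libraries, which left 5 genes of that class, the medians were 0.04, 0.18 and 0.05 in the same order. In 9 kinesins all 3 ASXL1-MT-KI libraries lay above all wild type libraries (6 transport, 3 other), as did 18.0% of all genes, and in 1 they lay below, as did 17.2%.

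**Figure D1:**
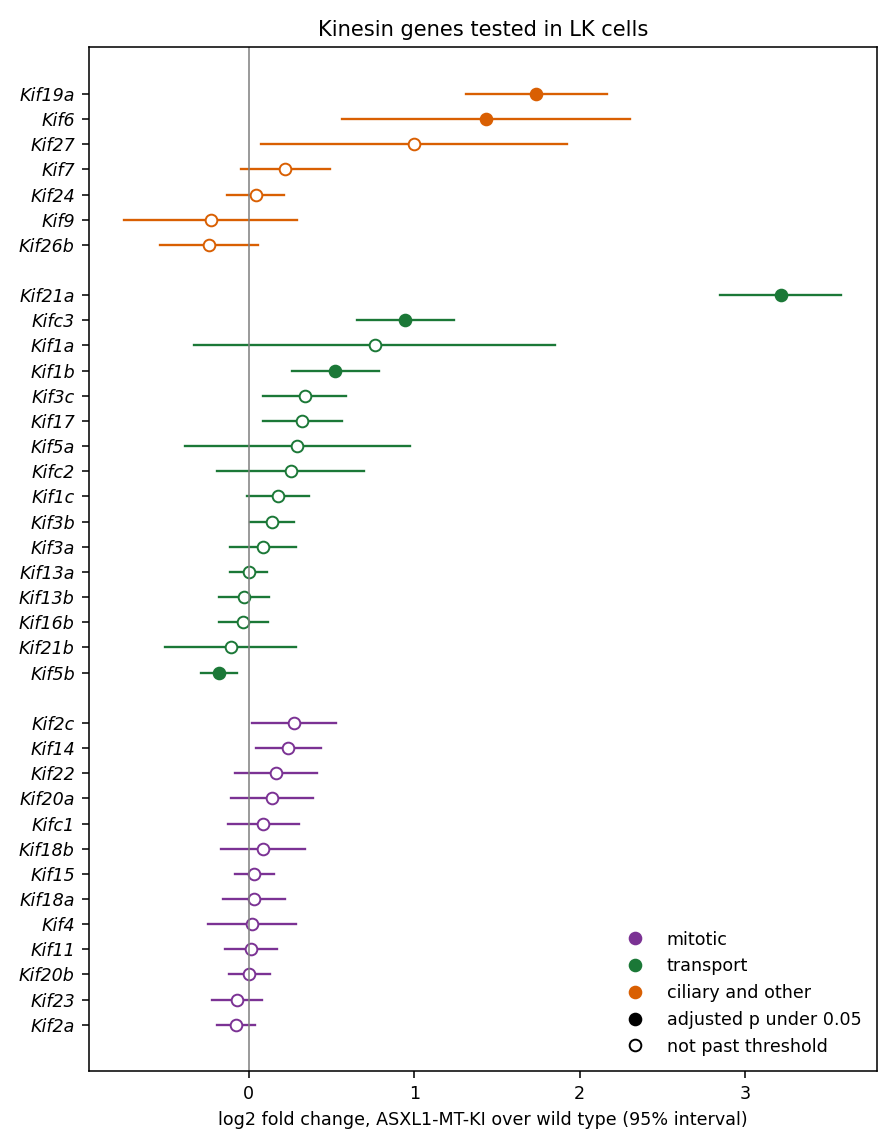
Log2 fold change of each tested kinesin, ASXL1-MT-KI over wild type, on the x axis with its 95% interval from the edgeR fit, grouped by class on the y axis. Kif21a stands at 3.21, Kif19a at 1.74 and Kif6 at 1.43, while the 13 mitotic kinesins lie between -0.08 and 0.27.

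The labels give replicate numbers but do not say that these pair the libraries. A pairing by number was inferred from correlations in these same counts. Wild type 2 correlated no less with ASXL1-MT-KI 1 (0.163) than with ASXL1-MT-KI 2 (0.162). Adding the numbers as a term gave more calls, which hold only if this pairing is right. With this replicate block 12 kinesins were higher (33.3%, beside 16.7% of all genes) and 1 lower (2.78%, beside 13.8%). The 7 members added were Kif2c (adjusted p = 0.000902), Kif14 (0.00176), Kif22 (0.00866) and Kif20a (0.0236) among the mitotic kinesins and Kif17 (0.00417), Kif3c (0.021) and Kif1c (0.0401) among the transport kinesins, all in edgeR's quasi-likelihood test.

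Kif21a encodes a kinesin that holds back microtubule growth near the cell cortex, and mutations in it cause a congenital eye muscle fibrosis in people. The gene (chr15:90933276-91049948, minus strand, GRCm38) held 45, 54 and 50 counts in wild type libraries 1 to 3 and 562, 496 and 363 in ASXL1-MT-KI libraries 1 to 3. Its level was 0.980, 1.18 and 1.23 CPM in wild type and 11.71, 10.97 and 8.75 CPM in ASXL1-MT-KI, so the groups did not overlap and the lowest knock-in library was far above the highest wild type one. The mean rose from 1.13 ± 0.132 to 10.5 ± 1.54 CPM (SD, n = 3), which is 9.28-fold or 3.21 ± 0.16 on the log2 scale (SE, 95% interval 2.85 to 3.58, edgeR adjusted p = 9.72e-06). The call was made under all 14 alternative settings, with log2 values of 3.12 to 3.39. In bulk samples a change in how many cells express a gene and a change in its RNA per cell cannot be told apart, for this and all genes described here.

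Levels per kb of the longest annotated transcript allow only a rough comparison of genes, as the isoforms that these cells express were not examined. On this scale Kif21a went from 0.176 to 1.63 CPM per kb, or from place 14 to place 12 of the 17 transport kinesins. It made up 0.147 to 0.185% of their summed level in wild type libraries and 1.28 to 1.76% in ASXL1-MT-KI libraries. Its close relative Kif21b, known from neurons and lymphocytes, measured 66.2, 53.7 and 80.9 CPM in wild type and 57.3, 57.2 and 71.8 in ASXL1-MT-KI, and these ranges overlapped (log2 -0.11 ± 0.16, 95% interval -0.50 to 0.29, adjusted p = 0.717). Kif21b stood 31.7 to 47.0 times above Kif21a per kb in wild type and 3.40 to 5.71 times above it in ASXL1-MT-KI. The nearest tested genes were Abcd2, a peroxisomal transporter gene 95.9 kb away (53.8 ± 2.85 to 61.7 ± 2.51 CPM, log2 0.20, adjusted p = 0.0499), and Alg10b at 700.0 kb (log2 0.06, adjusted p = 0.441). Neuron markers were near 0: the 10 genes summed to 0.912 to 1.42 CPM in wild type and 0.771 to 1.08 in ASXL1-MT-KI, with Snap25, Syt1, Stmn2 and Gap43 at 0 in every library.

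Kifc3, a minus-end-directed kinesin of cell junctions and the Golgi, rose as well. Its level was 3.18, 2.70 and 3.10 CPM in wild type and 5.94, 6.06 and 5.33 CPM in ASXL1-MT-KI (counts of 124 to 146 and 221 to 285), with no overlap. The change from 2.997 ± 0.256 to 5.78 ± 0.393 CPM was 1.93-fold, or 0.95 ± 0.13 on the log2 scale (adjusted p = 0.00156), and it was called in all 14 alternatives. The gene lies at chr8:95099828-95202812 on the minus strand. Of the nearest tested genes, Drc7 fell by 0.67 on the log2 scale 21.7 kb away (adjusted p = 0.0457), and Cngb1 at 36.2 kb was not called (log2 -0.16, adjusted p = 0.635).

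Kif1b, which carries mitochondria and synaptic vesicle precursors, was at a higher level. It measured 34.1, 35.3 and 43.8 CPM in wild type and 47.2, 55.3 and 60.1 in ASXL1-MT-KI, without overlap. The mean went from 37.7 ± 5.26 to 54.2 ± 6.51 CPM (chr4:149176319-149307693, minus strand), which is 1.44-fold or 0.52 ± 0.12 on the log2 scale (edgeR adjusted p = 0.0181). The call was lost without wild type library 1 (adjusted p = 0.0725), wild type library 2 (0.0617) or ASXL1-MT-KI library 2 (0.0609). Kif1bp, whose product binds Kif1b, was not called (26.6 ± 2.77 to 30.3 ± 2.07 CPM, log2 0.18, adjusted p = 0.195).

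Kif5b, the widely expressed heavy chain of conventional kinesin, was the most abundant transport kinesin per kb in both groups and the one that fell. It measured 243.6, 231.5 and 233.2 CPM in wild type and 208.0, 201.5 and 216.6 in ASXL1-MT-KI, so all knock-in libraries lay below all wild type ones. The mean fell from 236.1 ± 6.53 to 208.7 ± 7.596 CPM, which is 1.13-fold lower (log2 -0.18 ± 0.05, edgeR adjusted p = 0.0328). Its share of the summed transport kinesin level per kb was 37.2 to 39.1% in wild type and 32.7 to 33.8% in ASXL1-MT-KI. The call was lost with total counts in place of TMM scaling (adjusted p = 0.0921) and without wild type library 1 (0.116), wild type library 2 (0.0546), ASXL1-MT-KI library 1 (0.0963) or ASXL1-MT-KI library 2 (0.142). Its neuronal relative Kif5a stood at 0.949 ± 0.416 and 1.16 ± 0.179 CPM and was not called (adjusted p = 0.56).

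Among the 9 members of the other class, Kif19a and Kif6, both known from motile cilia, rose from low levels. Kif19a, which shortens microtubules at cilium tips (chr11:114765388-114790739, plus strand), held 26, 28 and 27 counts in wild type and 94, 98 and 84 in ASXL1-MT-KI, or 0.567, 0.611 and 0.665 against 1.96, 2.17 and 2.03 CPM. The groups were far apart relative to their spread (0.614 ± 0.0495 and 2.05 ± 0.107 CPM), and the rise was 3.33-fold, 1.74 ± 0.19 on the log2 scale (edgeR adjusted p = 0.0005), called in all 14 alternatives. Its nearest tested neighbours were not called (Ttyh2 at 44.4 kb, log2 -0.16, adjusted p = 0.436, and Cd300a at 99.3 kb, log2 -0.06, adjusted p = 0.561).

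Kif6 (chr17:49615136-49909847, plus strand) held 5, 6 and 9 counts in wild type and 23, 20 and 13 in ASXL1-MT-KI, or 0.109, 0.131 and 0.222 against 0.479, 0.442 and 0.313 CPM. These do not overlap, but they rest on few reads. The log2 difference was 1.43 ± 0.39 (edgeR adjusted p = 0.0348), and it was not called in DESeq2 (0.109) or without wild type library 1 (0.135), wild type library 2 (0.098), ASXL1-MT-KI library 1 (0.114) or ASXL1-MT-KI library 2 (0.114). Of its neighbours, Rftn1 at 82.4 kb rose by 0.23 on the log2 scale (adjusted p = 0.0167), and Daam2 at 50.8 kb was not called (0.22, adjusted p = 0.432).

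**Figure D2:**
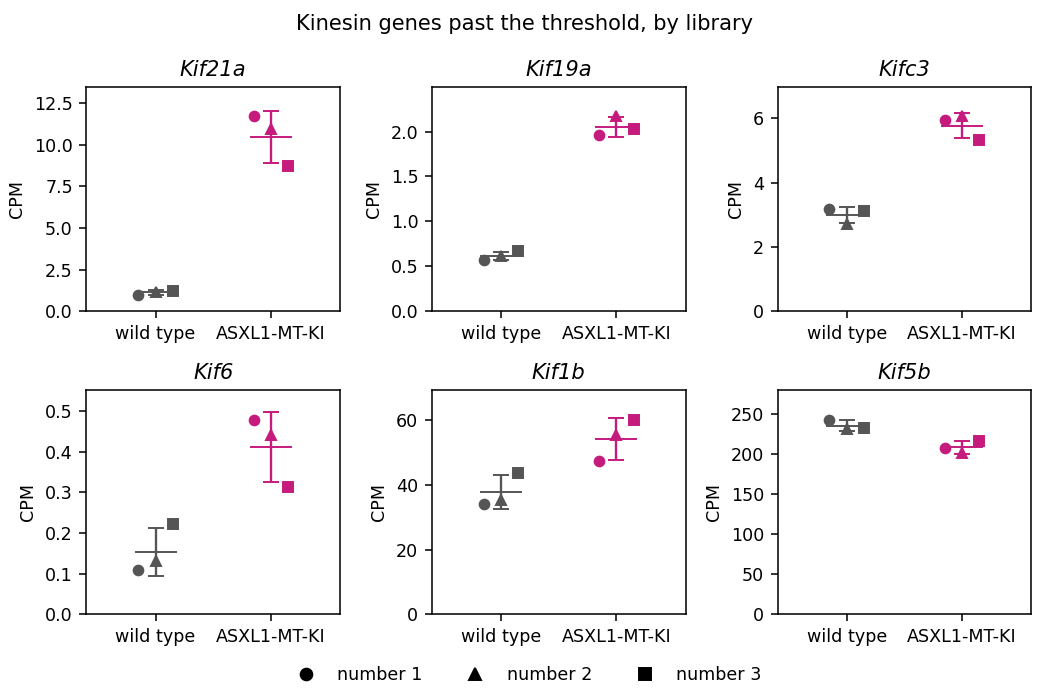
Scaled level (CPM, y axis from 0) of the 6 kinesins past the threshold in each library, wild type in grey and ASXL1-MT-KI in magenta. Circles, triangles and squares are replicate numbers 1, 2 and 3, and bars are the mean ± SD (n = 3): the 2 groups are apart in every panel, from 9.28-fold for Kif21a to 1.13-fold lower for Kif5b.

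The 3 members of the other class with the highest wild type level per kb, Kif24, Kif7 and Kif9, were not called. In ASXL1-MT-KI Kif19a took place 3 of this class (0.597 CPM per kb) and Kif9 place 4 (0.482). Kif24, a kinesin of centrioles that restrains cilium formation, measured 21.6, 23.8 and 24.6 CPM in wild type and 23.1, 25.5 and 23.5 in ASXL1-MT-KI, with overlapping ranges (log2 0.04, adjusted p = 0.763). Kif7, a Hedgehog pathway kinesin at the cilium tip, measured 7.10, 7.44 and 9.14 against 9.44, 9.67 and 8.46 CPM, and wild type library 3 reached into the knock-in range (log2 0.22, adjusted p = 0.247). Kif9, a relative of Kif6, measured 2.35, 1.37 and 1.68 against 1.77, 1.48 and 1.35 CPM (log2 -0.23, adjusted p = 0.555). Kif27 had all knock-in libraries above all wild type ones at very low levels (0.143 ± 0.0469 and 0.289 ± 0.0755 CPM) and was not called (adjusted p = 0.136). Kif26b, a kinesin-like gene without motor activity, stood at 6.25 ± 0.665 and 5.30 ± 0.589 CPM (log2 -0.24, adjusted p = 0.26).

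Of the kinesin genes of intraflagellar transport, Kif17, Kif3c and Kif3b lay higher in all ASXL1-MT-KI libraries, as did 18.0% of all genes. None of them passed the test without the replicate block, and Kif17 and Kif3c passed it with the block. Kif17 measured 17.3, 17.5 and 22.8 CPM in wild type and 23.9, 23.4 and 24.7 in ASXL1-MT-KI, with no overlap (log2 0.32 ± 0.11, edgeR adjusted p = 0.0703). It was called in DESeq2 (adjusted p = 0.0328), with no filter on low counts (0.0417) and without wild type library 3 (0.00248). Kif3c (7.11 ± 0.689 to 8.98 ± 0.626 CPM, log2 0.34, adjusted p = 0.0692) and Kif3b (29.0 ± 0.767 to 32 ± 0.341 CPM, log2 0.14, adjusted p = 0.137) were likewise apart and uncalled. Their dimer partner Kif3a overlapped between groups (18.8 ± 1.85 and 19.9 ± 1.12 CPM, adjusted p = 0.559). Kif3c overlaps the antisense gene 1110002L01Rik, which rose from 1.78 ± 0.251 to 2.66 ± 0.023 CPM (adjusted p = 0.0414), and Kif17 overlaps Sh2d5 on the same strand (72.2 ± 10.8 and 77.1 ± 3.998 CPM, adjusted p = 0.56), so their reads may be shared.

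The endosomal kinesins showed little difference. Kif13a, which moves recycling endosomes, measured 110.1, 103.5 and 101.3 CPM in wild type and 106.7, 104.1 and 104.5 in ASXL1-MT-KI, for a log2 difference of 0.00 with a 95% interval of -0.11 to 0.11. Kif16b, a kinesin of early endosomes, measured 52.7, 45.7 and 52.6 against 49.7, 49.2 and 48.8 CPM (log2 -0.03, interval -0.18 to 0.11). The intervals exclude a change as large as that of Kif1b in either gene. The remaining transport kinesins were not called: Kif13b stood at 36.1 ± 1.52 and 35.4 ± 2.16 CPM, Kif1c at 36.3 ± 3.15 and 41.0 ± 3.37, Kifc2 at 1.32 ± 0.204 and 1.58 ± 0.177, and Kif1a at 0.187 ± 0.128 and 0.311 ± 0.0445.

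**Figure D3:**
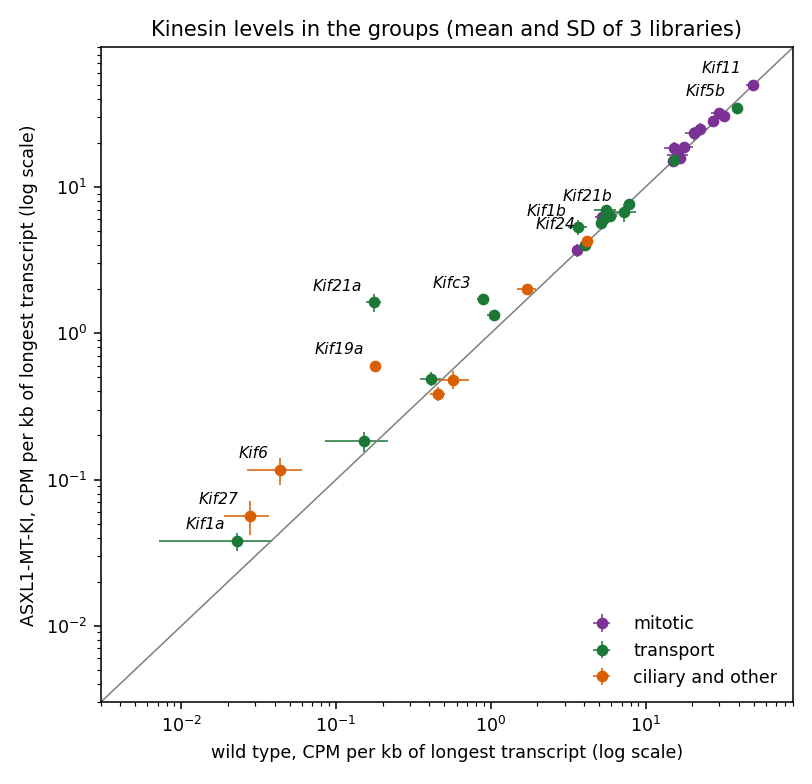
Mean level of each tested kinesin (mitotic in purple, transport in green, other in orange) in CPM per kb of its longest transcript, wild type on the x axis and ASXL1-MT-KI on the y axis (both log scales), with bars for the SD of 3 libraries and a grey line of equality. Most genes lie near the line from 0.02 to 49.3 CPM per kb, and Kif21a (0.176 and 1.63) lies farthest above it.

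The mitotic kinesins were the most abundant class, with wild type levels of 3.61 to 49.3 CPM per kb over the 13 tested members, while Kif2b was at 0. Kif11, which slides spindle microtubules apart, led both groups with 250.5, 250.1 and 212.8 CPM in wild type and 242.5, 249.9 and 227.4 in ASXL1-MT-KI, and the groups overlapped (log2 0.01, interval -0.14 to 0.17, adjusted p = 0.926). Kif23, a subunit of the centralspindlin complex of cytokinesis, measured 110.6, 115.8 and 99.7 against 106.8, 106.5 and 97.2 CPM (log2 -0.07, interval -0.22 to 0.08, adjusted p = 0.518). Kifc1, a minus-end motor that clusters spindle poles, measured 72.9, 77.7 and 61.6 against 82.6, 74.6 and 68.7 CPM (log2 0.09, interval -0.13 to 0.30, adjusted p = 0.575). In all 3 genes number 3 was the lowest library of each group. Kifc5b, a near copy of Kifc1 that the naming pattern leaves out, stood at 28.8 ± 1.11 and 34.4 ± 3.32 CPM (adjusted p = 0.0567), and how reads common to these copies were counted is not given.

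Kif2c and Kif14 came nearest to the threshold in this class. Kif2c, which shortens microtubules at kinetochores, measured 44.7, 48.9 and 36.8 CPM in wild type and 55.4, 55.9 and 46.4 in ASXL1-MT-KI (log2 0.27 ± 0.11, adjusted p = 0.136). Kif14, a kinesin of the midbody, measured 48.9, 50.1 and 41.4 against 58.5, 57.5 and 49.97 CPM (log2 0.24 ± 0.09, adjusted p = 0.0952). For each gene the knock-in library was above the wild type library of the same number 3 times of 3, while number 3 of the knock-in lay below wild type number 2. Without the number 3 libraries both were called (adjusted p = 0.0229 for Kif2c and 0.0219 for Kif14), as were 10 of 37 tested kinesins in all (27.0%, beside 17.8% of all genes in that fit), with Kif17 and Kif7 the others added. Kif14 was also called without ASXL1-MT-KI library 3 alone (adjusted p = 0.0492) and with total counts in place of TMM scaling (0.0386).

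Of the other 8 tested mitotic members, none was called in the fit without the block, 7 estimates were above 0 and only that of Kif2a was below. The sign differed in 5 of 14 alternatives for Kif20b, 4 for Kif4 and 1 each for Kif18a and Kif18b, and in none for the others. The chromosome-arm motors Kif22 and Kif4 measured 74.2 ± 9.36 and 83.2 ± 9.01 CPM (log2 0.17) and 81.2 ± 12.4 and 82.4 ± 7.23 CPM (0.02). The midzone kinesins Kif20a and Kif20b measured 83.1 ± 10.6 and 91.4 ± 9.77 CPM (0.14) and 83.4 ± 0.941 and 83.6 ± 4.91 CPM (0.00), and Kif20a overlaps Cdc23 on the opposite strand. Kif15, which can stand in for Kif11, measured 133.4 ± 6.49 and 136.7 ± 4.54 CPM (0.04). Kif18a and Kif18b, which damp chromosome movement and trim microtubule tips, had log2 differences of 0.03 and 0.09, and Kif2a, a spindle pole depolymerase, -0.08.

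Number 3 libraries were low for this class in both genotypes. Summed over its members the level was 1181, 1190 and 1029 CPM in wild type and 1200, 1221 and 1102 CPM in ASXL1-MT-KI, so the ranges overlapped. Wild type number 3 was the lowest wild type library for 11 of 13 mitotic kinesins, ASXL1-MT-KI number 3 for 11, and both together for 10, against 3, 5 and 2 of 16 transport kinesins. Compared by number, the knock-in sum was 1.55, 2.64 and 7.07% above wild type. Number 3 was also the lowest for red cell markers in each group, as given above, and the part of these cells in the mitotic levels was not tested.

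**Figure D4:**
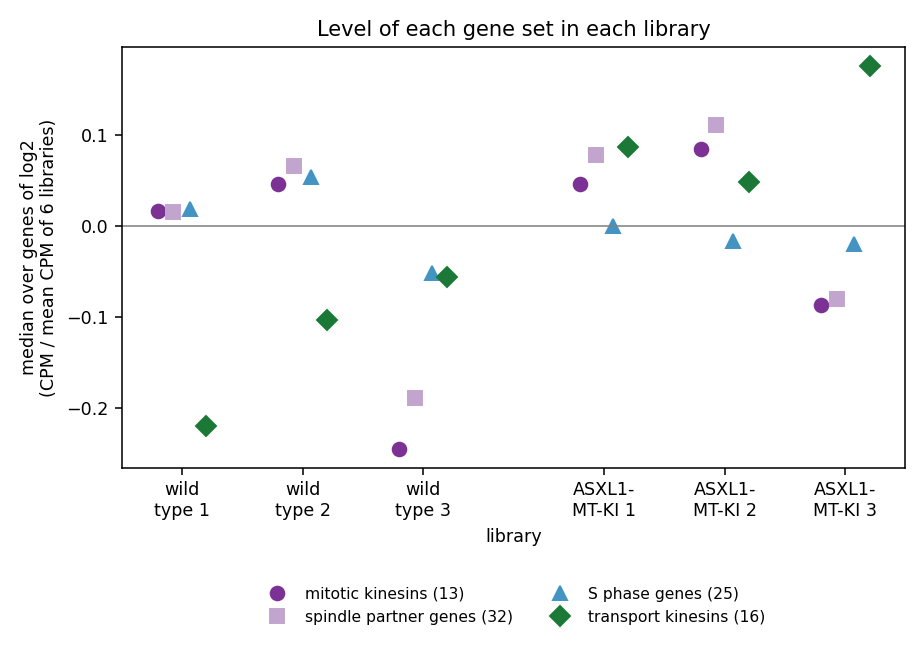
Median over genes of log2(CPM divided by the mean CPM of the 6 libraries, with 0.01 added to each CPM), y axis, for 4 gene sets in each library, x axis (the number of genes in parentheses). The mitotic kinesins and their spindle partners are lowest in number 3 of each group (-0.25 and -0.09 for the mitotic kinesins), S phase genes vary less, and transport kinesins run from -0.22 to 0.18.

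Partner genes of the mitotic kinesins were mostly not called. Of 32 spindle and cytokinesis genes, 0 rose and 1 fell (3.12% called, beside 16.0% of all genes), with a median log2 difference of 0.08. With the replicate block 9 of 32 were higher and 1 lower, beside 16.7% and 13.8% of all genes. Cenpf, Nuf2, Aurka, Plk1 and Prc1 were among those on the higher side. Without this block, 1 had an unadjusted p under 0.05 on the higher side, and DESeq2 and limma-voom called 0 higher. Numa1, which focuses spindle poles, was the one that fell (409.6 ± 10.5 to 367.9 ± 10.01 CPM, log2 -0.15, edgeR adjusted p = 0.0458). Its call was lost in 9 of 14 alternatives (adjusted p 0.0641 to 0.177), which include the removal of any 1 library. Without the block, Cenpf (0.21, 0.157), Nuf2 (0.17, 0.224) and Aurka (0.23, 0.249) were not called. Cenpe, the kinetochore kinesin whose symbol lies outside the Kif pattern, measured 160.7 ± 19.3 and 164.9 ± 10.9 CPM (adjusted p = 0.828). Among 25 S phase genes, Cdc6, a replication licensing factor, rose (log2 0.25, adjusted p = 0.042) and Pola1, a DNA polymerase subunit, fell (log2 -0.18, adjusted p = 0.0278), with a median of -0.01. The block gave 3 of 25 higher and 3 lower, beside 16.7% and 13.8% of all genes. The call of Cdc6 was lost without any 1 library and that of Pola1 without any 1 but wild type library 3 (adjusted p 0.0521 to 0.182 and 0.0604 to 0.103, with other settings).

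Genes that link transport kinesins to cargo were not called in edgeR among 29 tested, with 3 higher and 1 lower at an unadjusted p under 0.05, 1 call in DESeq2 and 0 in limma-voom. Their median was -0.02, and with the replicate block 5 of 29 were higher and 2 lower, beside 16.7% and 13.8% of all genes. The mitochondrial adaptors Trak1 (103.6 ± 3.498 to 93.0 ± 1.36 CPM, log2 -0.16, adjusted p = 0.0563) and Trak2 (108.7 ± 7.80 to 124.7 ± 6.52 CPM, log2 0.20, adjusted p = 0.0679) came nearest, with opposite signs. Clstn1, a light chain cargo adaptor, and Fyco1, an autophagosome adaptor, had log2 differences of 0.36 and 0.22 (adjusted p = 0.121 and 0.142). The light chain Klc1 measured 52.2 ± 1.99 and 55.9 ± 2.10 CPM (log2 0.10, adjusted p = 0.267), and Kifap3, the third subunit of the Kif3a and Kif3b motor, 23.3 ± 1.25 and 21.4 ± 1.24 CPM (log2 -0.12, adjusted p = 0.326).

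In the dynein and dynactin list, which holds the motor of the opposite direction, 1 of 32 tested genes rose and 2 fell (9.38% called, beside 16.0% of all genes), with a median of -0.02. The block gave 6 of 32 higher and 4 lower, beside 16.7% and 13.8% of all genes. Ndel1, a dynein regulator, fell from 61.9 ± 3.70 to 47.3 ± 0.80 CPM (log2 -0.39, edgeR adjusted p = 0.00235). Dctn4, a dynactin subunit, fell from 80.7 ± 3.93 to 66.2 ± 2.85 CPM (log2 -0.29, adjusted p = 0.00926). Hook1, an adaptor that activates dynein, rose from 27.9 ± 2.35 to 34.3 ± 0.306 CPM (log2 0.30, adjusted p = 0.0225), and Dctn5 was not called (log2 0.20, adjusted p = 0.0528). Ndel1 was called in all 14 alternatives. The call of Dctn4 was lost without ASXL1-MT-KI library 2 (0.0521), and that of Hook1 without wild type library 2 or any 1 ASXL1-MT-KI library (0.0501 to 0.0695).

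Among 23 tested genes that regulate the microtubule track, 0 rose and 5 fell, with a median of -0.09. This is 21.7% called, beside 16.0% of all genes, of which 8.29% were higher and 7.69% lower. These calls depended on single libraries: 0 were made without wild type library 1 or without ASXL1-MT-KI library 2, 1 without ASXL1-MT-KI library 1, 2 without wild type library 3, and 3 without wild type library 2 or ASXL1-MT-KI library 3, all lower. With total counts in place of TMM scaling 1 gene was higher and 1 lower. With the replicate block 2 of 23 were higher and 9 lower, beside 16.7% and 13.8% of all genes. Of these 5 genes, 3 belong to the Map7 family, whose proteins recruit Kif5b to microtubules. Map7 fell from 66.3 ± 5.12 to 56.0 ± 3.01 CPM (log2 -0.24, edgeR adjusted p = 0.0416), Map7d1 from 111.5 ± 3.48 to 96.5 ± 5.79 CPM (-0.21, 0.0355) and Map7d2 from 0.479 ± 0.0939 to 0.149 ± 0.0182 CPM (-1.66, 0.0111). The other two were Clip1, a plus-end tracking protein (log2 -0.18, adjusted p = 0.0229), and Map4, a microtubule stabiliser (-0.18, 0.0417). The family grouping was made after these values were seen. Map7d2 held 24, 17 and 22 counts in wild type and 7, 6 and 7 in ASXL1-MT-KI. It thus entered the test largely through the group in which it was higher, and its call rests on few reads.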

How the data were processed

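Gene counts were deposited by the authors in 1 table of 6 libraries by gene symbol, as whole numbers without normalization. Per the labels' protocols, the NEBNext Ultra kit was used with 200 ng RNA and reads were 124 bp paired ends (HiSeq). HISAT2 2.0.4 and mm10 are named in the submitters' processing notes. Which counter and annotation were used, and whether strand and shared reads were taken into account, is not given in the sources used, so overlapping genes and near copies are uncertain.

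Genotypes were compared with edgeR 4.0.16 in R 4.3.3 (filterByExpr at a minimum of 10 counts, TMM factors of 0.972 to 1.03, robust quasi-likelihood F test, no covariate), and p-values were adjusted by Benjamini-Hochberg over 13548 genes. The SE is the log2 difference divided by the square root of F. Wild type libraries held 47242076, 46875571 and 40739398 counts and ASXL1-MT-KI libraries 47579480, 44326770 and 40462168. The biological coefficient of variation was 8.78%. Alternatives used DESeq2 1.42.0, limma-voom (limma 3.58.1), other scalings and filters, the replicate block, and fewer libraries. The script was tested on simulated counts. Coordinates, overlaps and transcript lengths come from GENCODE M21 on GRCm38 and promoters from RefSeq on GRCm38.p6, the assembly that mm10 names.

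Deviations from the group means correlated at 0.253, 0.162 and 0.391 between libraries with the same number, all over 0.1, so the numbers were taken to pair them, although wild type 2 also correlated with ASXL1-MT-KI 1 (0.163). The labels do not say what a number shares, and the pairing was inferred from the same counts that the block then tests. The family members, their classes, the partner and marker lists and the tests were chosen with earlier results of these data known. Values are given for each member that passed the test, the 3 most abundant of each class per kb, up to 4 partner genes a list by p, and the nearest tested genes of members that changed at least 1.5-fold. Other genes named were chosen after their values were seen.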

Additional observations from a re-analysis of the deposited data

How the results depend on the processing

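Kif21a, Kif19a and Kifc3 were called in all 14 alternatives. With the replicate block, which uses the pairing inferred from these counts, calls went from 2165 to 4132 of 13548 genes and from 11 to 44 of 141 partner genes. Of these partner genes 25 were higher and 19 lower, beside 16.7% and 13.8% of all genes. The block took kinesin calls from 6 to 13 of 36, mitotic ones from 0 to 4 of 13 and transport ones from 4 to 7 of 16. With only numbers 1 and 2 of both groups, 10 kinesins were called, 2 of them mitotic, beside 2413 of 13537 genes (17.8%). Scaling by total counts called 1 mitotic kinesin (Kif14) and moved the median log2 difference of all genes to 0.05. DESeq2, and a filter of 1 CPM in 3 libraries, which removes Kif6, each left 1 call in the other class, against 2. Leaving out 1 library at a time gave 1128 to 2257 calls over all genes, 3 to 7 kinesins, 0 to 1 mitotic, 2 to 5 transport and 1 to 2 other kinesins, and 1 to 9 partner genes. The fewest over all genes came without wild type library 1 (1128), and the counts were 1143 without ASXL1-MT-KI library 2 and 1388 without ASXL1-MT-KI library 1. Kinesin calls fell to 3 without wild type library 1, wild type library 2 or ASXL1-MT-KI library 2. Fewer libraries enter these fits, and the cause of the other changes was not tested. Low counts limit Kif6, Kif27 and Kif1a and, among the partner genes, Map7d2.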
